A study of Rattus norvegicus with 12 samples.

Results

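The heterogeneous nuclear ribonucleoprotein K (hnRNPK) and the poly(C)-binding proteins (PCBPs) were followed at the RNA level in rat hepatic progenitor cells (HPCs), immature liver cells that can form hepatocytes and bile duct cells. The 4 genes listed by symbol were Hnrnpk, Pcbp1, Pcbp2 and Pcbp4. Of these, 3 matched 1 line each among the 22384 lines that carry a symbol, and Pcbp1 was not analysed here. The closest relative outside the list, Pcbp3, was read beside them.

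The 12 RNA-seq libraries fall into 6 groups of 2, all labelled as HPCs of gestation day 13.5. Wild type, Tnfrsf1α-/- and Tnfrsf1β-/- cells were each kept untreated or exposed for 1 hour to the inflammatory cytokine tumour necrosis factor alpha (TNFα). The knocked-out genes are those of the receptors TNFR1 and TNFR2, per the labels, and TNFR2, hnRNPK, the co-activator YAP and liver cancer stand in the title of the series. How the knockout cells were made, and whether a group came from separate animals, cultures or clones, is not given in the sources used here, so the spread that p-values rest on may be technical.

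These proteins bind single-stranded stretches of cytosines in RNA and DNA through KH domains, the RNA-binding fold named after hnRNPK. hnRNPK itself acts in transcription, splicing, mRNA stability and translation, moves between nucleus and cytoplasm, and is a docking platform for kinases. The PCBPs regulate mRNA stability and translation, and Pcbp1 and Pcbp2 also encode cytosolic iron chaperones.

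Promoter windows are shown first for Hnrnpk and Pcbp2, because both genes rose with TNFα in wild type cells. Each window runs from 250 bases before to 50 after a transcription start in RefSeq, build GRCr8 (the build of the expression table is not given in the sources used here). Capitals mark CCCTCCC, a poly(C) motif of the kind bound by this family, and all other bases are in lower case. RefSeq gave a window for 3 of the 4 listed genes.
Hnrnpk: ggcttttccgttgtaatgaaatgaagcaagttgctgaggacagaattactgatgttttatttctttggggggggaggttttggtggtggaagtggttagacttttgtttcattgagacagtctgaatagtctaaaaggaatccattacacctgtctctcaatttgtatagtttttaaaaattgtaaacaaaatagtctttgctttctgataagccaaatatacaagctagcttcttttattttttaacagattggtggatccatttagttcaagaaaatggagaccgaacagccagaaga
Pcbp2: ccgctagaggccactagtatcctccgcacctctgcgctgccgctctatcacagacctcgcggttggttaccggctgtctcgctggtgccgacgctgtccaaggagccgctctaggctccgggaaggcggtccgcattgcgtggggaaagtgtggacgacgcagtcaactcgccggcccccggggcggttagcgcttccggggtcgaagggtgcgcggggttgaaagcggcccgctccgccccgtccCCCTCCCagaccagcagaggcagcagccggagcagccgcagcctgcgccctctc

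The Hnrnpk window lies on the plus strand of chromosome 17 (chr17:6270990-6271289), has a GC content of 35.67%, and its start site lies 1938 bases inside the annotated gene. The Pcbp2 window lies on the plus strand of chromosome 7 (chr7:135483651-135483950), has a GC content of 69.67%, and its start site lies 199 bases inside the annotated gene. The search, on both strands, covered CCCTCCC, the TEAD core GGAATG (TEAD factors are the DNA-binding partners of YAP) and GGGANTT, the start of a common kappa B site. Pcbp2 held 1 CCCTCCC, starting at base 247 of the window, a motif found in 20.75% of all 33469 windows of the same length. The Hnrnpk window held none of the 3 motifs, and the Pcbp2 window held neither GGAATG nor GGGANTT. Those letters occur in 14.19% and 17.18% of all windows. The Hnrnpk window belongs to a start inside the gene, so bases before the annotated gene start of Hnrnpk were not searched.

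Levels below are log2(FPKM + 1), where FPKM is fragments per kilobase of transcript, scaled to a library's mapped fragments. The depth of the libraries is unknown because only FPKM values were used. The FPKM total of a library was at most 472935 without TNFα in either knockout and at least 1071530 in every other group, so shares within a library are given beside the levels. The treated pair labelled Tnfrsf1α-/- differed more than any other: 1231 of 11860 tested lines were over 2 log2 units apart, against 8 to 127 in the other 5 pairs. Tnfrsf1b, the gene of TNFR2, is listed at 0 in all 4 libraries labelled Tnfrsf1β-/-, but also in both untreated wild type libraries. It was at 2.58 and 2.43 in treated wild type and at 0.03 and 0 in untreated Tnfrsf1α-/- libraries. In treated Tnfrsf1α-/- cells it was at 0 in the first library, which had the highest Hnrnpk level (12.70), and at 4.09 in the second. Tnfrsf1a, the gene of TNFR1, had levels of 5.65 to 6.13 in the 4 libraries labelled Tnfrsf1α-/- and 5.15 to 5.65 in wild type. The table holds 1 value for the whole gene and the targeted part is not given, so this level does not check that label, and the groups are named as labelled.

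Hnrnpk had the widest range of levels in the family. With TNFα it rose in wild type cells and in cells labelled Tnfrsf1α-/-, and in cells labelled Tnfrsf1β-/- it did not pass the test. In untreated wild type cells its levels were 7.24 and 6.55, that is 150 and 92.9 FPKM, and with TNFα they were 11.41 and 10.33, that is 2726 and 1287 FPKM. In cells labelled Tnfrsf1α-/- they were 8.03 and 7.84 untreated (261 and 228 FPKM) and 12.70 and 10.62 with TNFα (6652 and 1572 FPKM). In cells labelled Tnfrsf1β-/- they were 6.72 and 6.77 untreated (105 and 108 FPKM) and 6.80 and 6.34 with TNFα (111 and 79.9 FPKM).

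The 4 treated libraries of wild type and Tnfrsf1α-/- cells thus stood above the other 8 without overlap, and these treated groups overlapped each other. Next came untreated Tnfrsf1α-/- cells, whose libraries lay above both untreated wild type libraries. The remaining groups, untreated wild type, untreated Tnfrsf1β-/- and treated Tnfrsf1β-/-, formed a lowest tier in which neighbours overlapped. In each of these 12 bulk libraries, fewer cells of a type and less RNA per cell cannot be told apart.

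**Figure D1:**
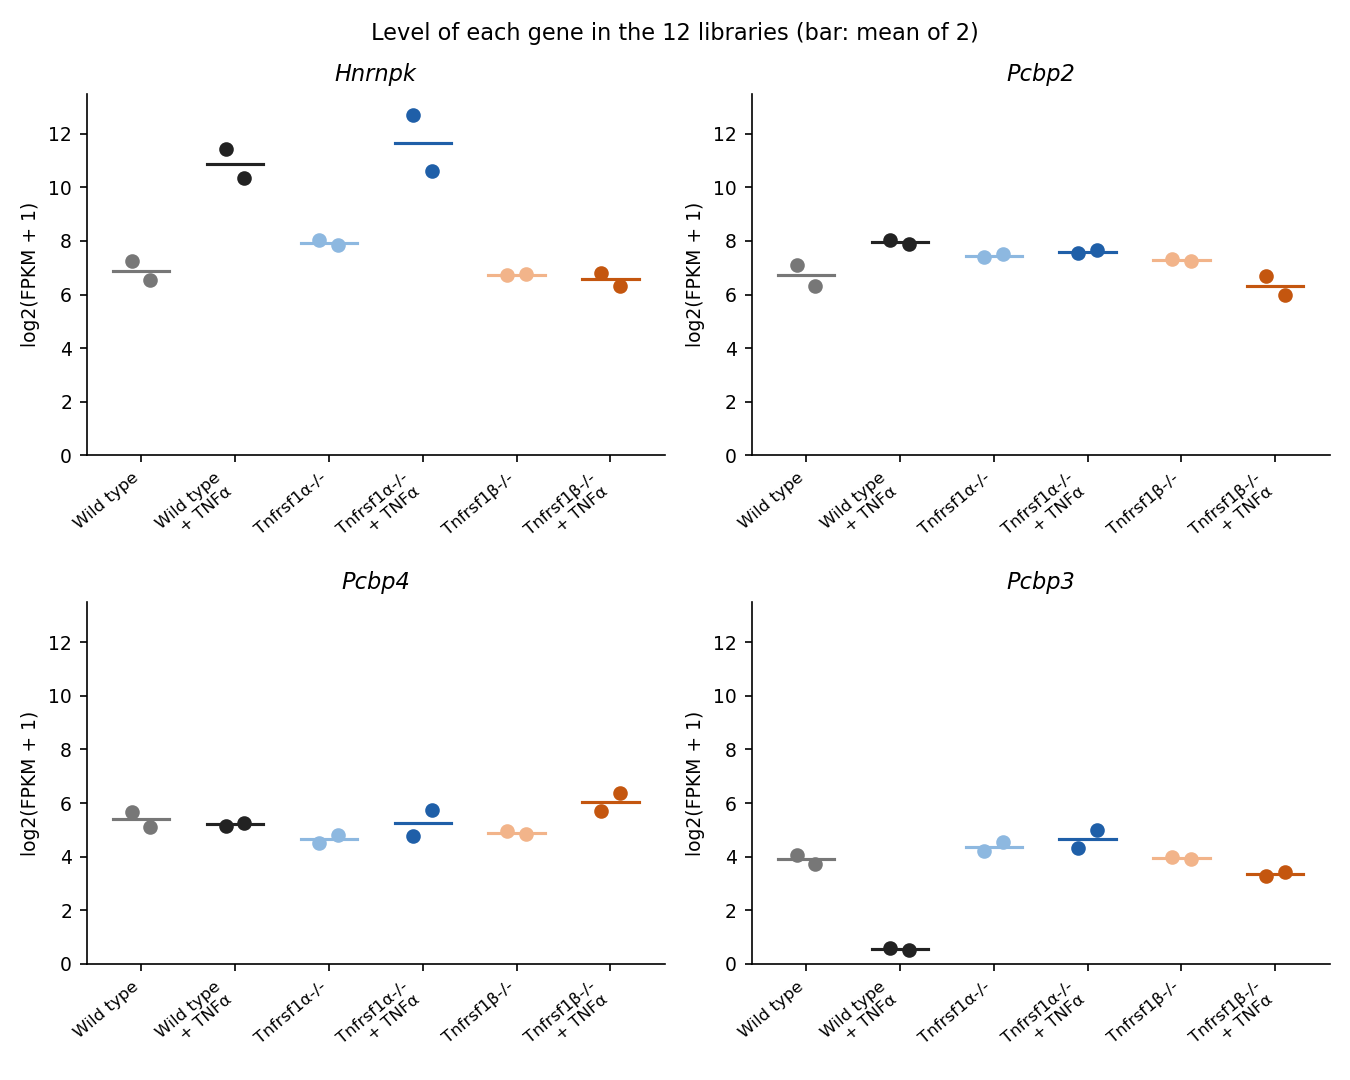
Levels of Hnrnpk, Pcbp2, Pcbp4 and Pcbp3 in the 12 libraries, as log2(FPKM + 1) on the vertical axis and the 6 groups on the horizontal axis; points are libraries and bars are means of 2. Hnrnpk is at 10.33 to 12.70 in treated wild type and treated Tnfrsf1α-/- libraries and at 8.03 or below elsewhere, and Pcbp3 is at 0.60 and 0.52 in the treated wild type libraries.

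In wild type cells the mean level of Hnrnpk went from 6.90 ± 0.49 (SD, n = 2) to 10.87 ± 0.77 (SD, n = 2), a log2 difference of 3.97 with a standard error (SE) of 0.62 and a limma adjusted p of 0.000997. Pcbp2, which encodes a regulator of mRNA stability and translation, rose too, and Pcbp4, a less abundant member, did not pass the test. That makes 2 of 3 tested members higher and 0 lower, where 31.9% of all tested lines were higher and 47.2% changed in either direction. Of the latter 67.6% were higher, or 49.3% after median-ratio scaling. Over all tested lines the median log2 difference was 0.32, so the Hnrnpk difference lay well above the general upward shift.

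Pcbp2 had levels of 7.11 and 6.32 in untreated wild type cells and 8.05 and 7.87 with TNFα, and the libraries did not overlap. Its log2 difference was 1.24 (SE 0.30, limma adjusted p = 0.009). It was 0.77 after median-ratio scaling (adjusted p = 0.0183), and the call was lost after quantile normalization (0.56, adjusted p = 0.128), without untreated wild type replicate 2 (0.85, adjusted p = 0.0557) and without treated wild type replicate 1 (1.16, adjusted p = 0.0636). Pcbp4 had levels of 5.68 and 5.11 untreated and 5.14 and 5.27 with TNFα, which overlap (log2 difference -0.19, 95% interval -0.99 to 0.62, limma adjusted p = 0.686).

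Pcbp3 went the other way in wild type cells. This relative binds poly(C) like the others and was at 4.05 and 3.74 untreated and at 0.60 and 0.52 with TNFα, the lowest values of the family in any library. The log2 difference was -3.34 (SE 0.27, limma adjusted p = 1.35e-05). In FPKM it was at 15.6 and 12.4 untreated and at 0.514 and 0.433 with TNFα. In the other 10 libraries its level stayed between 3.29 and 5.0.

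In cells labelled Tnfrsf1α-/- Hnrnpk rose by a log2 difference of 3.72 (SE 0.62, limma adjusted p = 0.00431), from a mean of 7.94 ± 0.14 (SD, n = 2) to 11.66 ± 1.47 (SD, n = 2). It was the only 1 of 3 members called, against 17.3% of all tested lines called in either direction, 9.81% higher and 7.5% lower. The FPKM totals of these libraries were 469055 and 472935 untreated and 1311294 and 1461416 with TNFα. A TNFα effect cannot be told apart from another difference of the untreated libraries, which was not tested. The call was lost after quantile normalization (1.77, adjusted p = 0.0839) and in a fit to only the groups compared (adjusted p = 0.184). It held when each library was left out in turn, with log2 differences of 2.68 to 4.76, the lowest without the treated replicate at 12.70.

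Pcbp2 was at 7.38 and 7.52 in untreated and 7.54 and 7.66 in treated Tnfrsf1α-/- libraries. These groups lie next to each other without overlap, and the log2 difference was 0.15 (95% interval -0.53 to 0.83, limma adjusted p = 0.733). After quantile normalization Pcbp2 was lower instead (-1.21, adjusted p = 0.0124). Pcbp4 was at 4.50 and 4.79 untreated and at 4.78 and 5.73 with TNFα, which overlap (0.61, 95% interval -0.20 to 1.42, limma adjusted p = 0.230). Without the first treated replicate the Pcbp4 difference was 1.08 with an adjusted p of 0.0194. Pcbp3 did not pass either (0.28, limma adjusted p = 0.465).

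In cells labelled Tnfrsf1β-/- Pcbp2 fell and Pcbp4 rose with TNFα, and Hnrnpk did not pass the test. For Hnrnpk the log2 difference was -0.18 (95% interval -1.59 to 1.24, limma adjusted p = 0.843), and after median-ratio scaling it was 0.62. With 2 of 3 members called, the share compares with 60.5% of all tested lines called in either direction, 17.6% higher and 42.9% lower, and a median log2 difference of -0.66 over them. FPKM totals were 453243 and 447554 untreated and 1076956 and 1176115 with TNFα. Here too a TNFα effect cannot be told apart from another difference of the untreated libraries.

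Pcbp2 was at 7.32 and 7.27 in untreated Tnfrsf1β-/- libraries and at 6.68 and 5.99 with TNFα. Both treated libraries lay lower, and the log2 difference was -0.96 (SE 0.30, limma adjusted p = 0.0215). After median-ratio scaling, which removes the shift common to most genes, the difference was -0.16 with an adjusted p of 0.551, and after quantile normalization it was -2.06 with an adjusted p of 0.000564. Pcbp4 was at 4.94 and 4.84 untreated and at 5.70 and 6.36 with TNFα, both treated libraries higher, and it rose by 1.14 on the log2 scale (SE 0.35, limma adjusted p = 0.0215), or 1.93 after median-ratio scaling. Either call was lost without untreated replicate 1, untreated replicate 2 or treated replicate 2: Pcbp2 then differed by -0.93, -0.99 and -0.61, and Pcbp4 by 1.19, 1.09 and 0.81. Pcbp3 was at 4.0 and 3.92 untreated and 3.29 and 3.44 treated (-0.59, limma adjusted p = 0.0858).

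**Figure D2:**
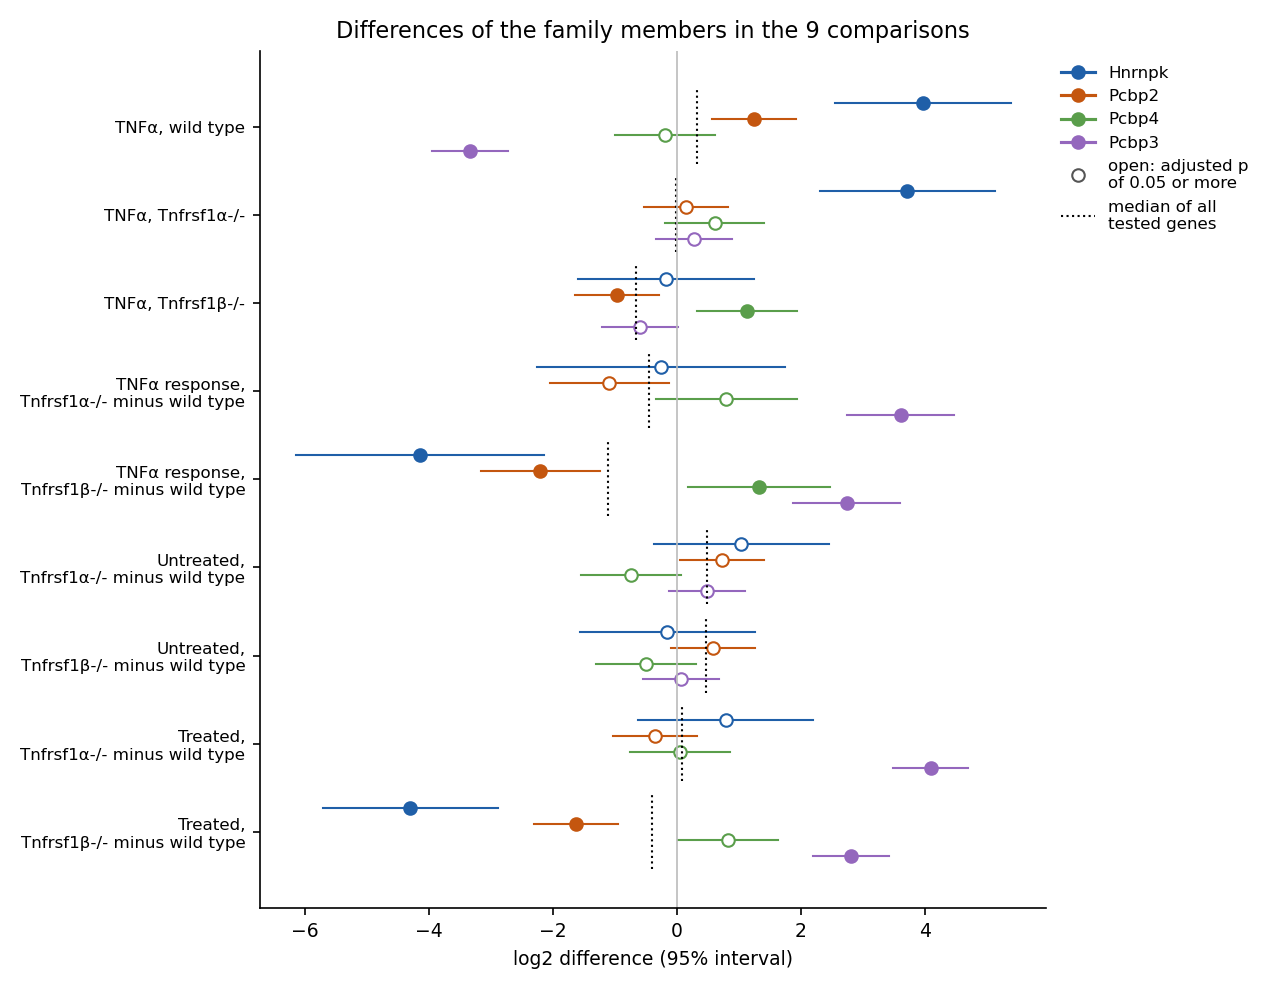
Log2 differences of Hnrnpk, Pcbp2, Pcbp4 and Pcbp3 in the 9 comparisons (horizontal axis), with 95% intervals from limma as lines; filled points have an adjusted p under 0.05 and the dotted line is the median of all tested genes. Hnrnpk stands at 3.97 and 3.72 with TNFα in wild type and Tnfrsf1α-/- cells and at -0.18 (0.62 after median-ratio scaling) in Tnfrsf1β-/- cells.

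The difference between responses was tested directly. In cells labelled Tnfrsf1β-/- the TNFα response of Hnrnpk was lower than in wild type by a log2 difference of -4.15 (SE 0.88, limma adjusted p = 0.00342). The response of Pcbp2 was also lower (-2.20, SE 0.42, limma adjusted p = 0.00206), and that of Pcbp4 was higher (1.33, SE 0.50, limma adjusted p = 0.0434). All 3 tested members were called in this comparison, and so were 64.5% of all tested lines, 17.3% higher and 47.3% lower. Their median was -1.11. The Hnrnpk and Pcbp2 calls held in every alternative run, with Hnrnpk at -2.88 and Pcbp2 at -0.93 after median-ratio scaling. The Pcbp4 difference was 2.58 after median-ratio scaling, and its call was lost without the filter on low values (adjusted p = 0.0578) and in 8 of 12 fits with a library left out, where it ranged from 1.00 to 1.66 over the 12. Those 8 left out untreated wild type replicate 1, treated wild type replicate 1 or 2, untreated Tnfrsf1α-/- replicate 1 or 2, untreated Tnfrsf1β-/- replicate 1 or 2, or treated Tnfrsf1β-/- replicate 2.

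Between the responses of Tnfrsf1α-/- and wild type cells no member passed, against 34.8% of all tested lines, 12.8% higher and 22% lower, and 1 of 3, Pcbp2, had an unadjusted p under 0.05 in limma. For Hnrnpk the difference was -0.25 (95% interval -2.25 to 1.75, limma adjusted p = 0.840), or 0.27 after median-ratio scaling, so responses that differ up to several-fold are within the interval. For Pcbp2 it was -1.09 (limma adjusted p = 0.0738), and for Pcbp4 0.80 (limma adjusted p = 0.238). Past the threshold were Pcbp2 after quantile normalization (-1.77, adjusted p = 0.00949) or without untreated wild type replicate 1 (-1.49, adjusted p = 0.0170), and Pcbp4 without the first treated Tnfrsf1α-/- replicate (1.27, adjusted p = 0.0284). Pcbp3 differed in both comparisons, by 3.61 for Tnfrsf1α-/- and 2.74 for Tnfrsf1β-/- (limma adjusted p = 0.000133 and 0.000405). All these comparisons share the wild type libraries.

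Among untreated cells no member passed. In cells labelled Tnfrsf1α-/- the log2 difference from wild type was 1.04 for Hnrnpk (95% interval -0.38 to 2.46), 0.74 for Pcbp2 (0.06 to 1.42) and -0.75 for Pcbp4 (-1.55 to 0.06), with limma adjusted p of 0.189, 0.0646 and 0.106. Of all tested lines 53.7% were called there, 36.7% higher and 17% lower, and of the members 1, Pcbp2, had an unadjusted p under 0.05. Whether a member passed turned on the setting. Quantile normalization took Hnrnpk (2.28, adjusted p = 0.0249) and Pcbp2 (1.77, adjusted p = 0.00127) past the threshold, and median-ratio scaling took Pcbp4 past it (-1.31, adjusted p = 0.0234). The removal of either treated Tnfrsf1α-/- library took Hnrnpk and Pcbp4 past the threshold. The fit to only the groups compared also took Hnrnpk past it (adjusted p = 0.0435). For Pcbp2, the removal of untreated wild type replicate 1 or of either treated Tnfrsf1β-/- library did so.

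In untreated cells labelled Tnfrsf1β-/- the differences from wild type were -0.15 for Hnrnpk (0.75 after quantile normalization), 0.58 for Pcbp2 and -0.50 for Pcbp4 (limma adjusted p = 0.875, 0.130 and 0.262). Of all tested lines 54.4% were called, 36.9% higher and 17.5% lower, and 0 of 3 members had an unadjusted p under 0.05. Pcbp2 passed after quantile normalization (1.73, adjusted p = 0.00139) and without untreated wild type replicate 1 (0.98, adjusted p = 0.0229).

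Among treated cells Hnrnpk was lower in Tnfrsf1β-/- than in wild type libraries by a log2 difference of -4.30 (SE 0.62, limma adjusted p = 0.000575), and Pcbp2 was lower by -1.62 (SE 0.30, limma adjusted p = 0.00217). That is 2 of 3 members lower where 36.3% of all tested lines were lower and 51% were called in either direction. Both calls held in every alternative run, with Pcbp2 at -0.88 under quantile normalization and -0.91 under median-ratio scaling. Pcbp4 was at 0.83 (limma adjusted p = 0.0814) and passed with median-ratio scaling (1.53, adjusted p = 0.0130), with quantile normalization (1.22, adjusted p = 0.0158), in the fit to only the groups compared (adjusted p = 0.0432) and without either treated Tnfrsf1α-/- library (adjusted p = 0.0226 and 0.0225).

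Treated Tnfrsf1α-/- libraries did not pass against treated wild type for any member, where 45.2% of all tested lines were called and 0 of 3 members had an unadjusted p under 0.05. Hnrnpk differed by 0.79 (95% interval -0.63 to 2.20), Pcbp2 by -0.36 (-1.03 to 0.32) and Pcbp4 by 0.05 (-0.76 to 0.86), with limma adjusted p of 0.320, 0.348 and 0.917. The Hnrnpk value turned on the treated Tnfrsf1α-/- pair: it was -0.25 without replicate 1 and 1.83 without replicate 2, the latter with an adjusted p of 0.00674. Pcbp3 was the exception, higher in treated Tnfrsf1α-/- by 4.10 and in treated Tnfrsf1β-/- by 2.81 (limma adjusted p = 4.54e-06 and 4.34e-05).

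Ratios within a library do not depend on a common factor by which its values were scaled, but quantile normalization can change them. Hnrnpk FPKM was 1.10 and 1.18 times that of Pcbp2 in untreated wild type libraries and 10.4 and 5.52 times with TNFα. In cells labelled Tnfrsf1α-/- the ratios were 1.57 and 1.25 untreated and 35.9 and 7.80 with TNFα. In cells labelled Tnfrsf1β-/- they were 0.659 and 0.706 untreated and 1.09 and 1.28 with TNFα. Thus Hnrnpk was at least 5.52 times Pcbp2 in the 4 libraries where it was high and at most 1.57 times in the other 8, and untreated Tnfrsf1β-/- was the only group with Pcbp2 above Hnrnpk.

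The make-up of the family without Pcbp1, which was not analysed here, shifted with it. Hnrnpk held 90.1% and 82.6% of the summed FPKM of Hnrnpk, Pcbp2, Pcbp3 and Pcbp4 in treated wild type libraries, and 96.6% and 84.7% in treated Tnfrsf1α-/- libraries. In the other 8 libraries its share ran from 33.9% to 56.0%. Pcbp4 reached its largest shares in treated Tnfrsf1β-/- libraries, 18.7% and 34.8%, and in the second of these it was the most abundant of the 4 per length. RefSeq lists 7 pseudogenes of Hnrnpk, 10 of Pcbp2 and 4 of Pcbp4, and how the authors counted reads shared with such copies is not given in the sources used here, so levels of these genes carry that uncertainty.

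**Figure D3:**
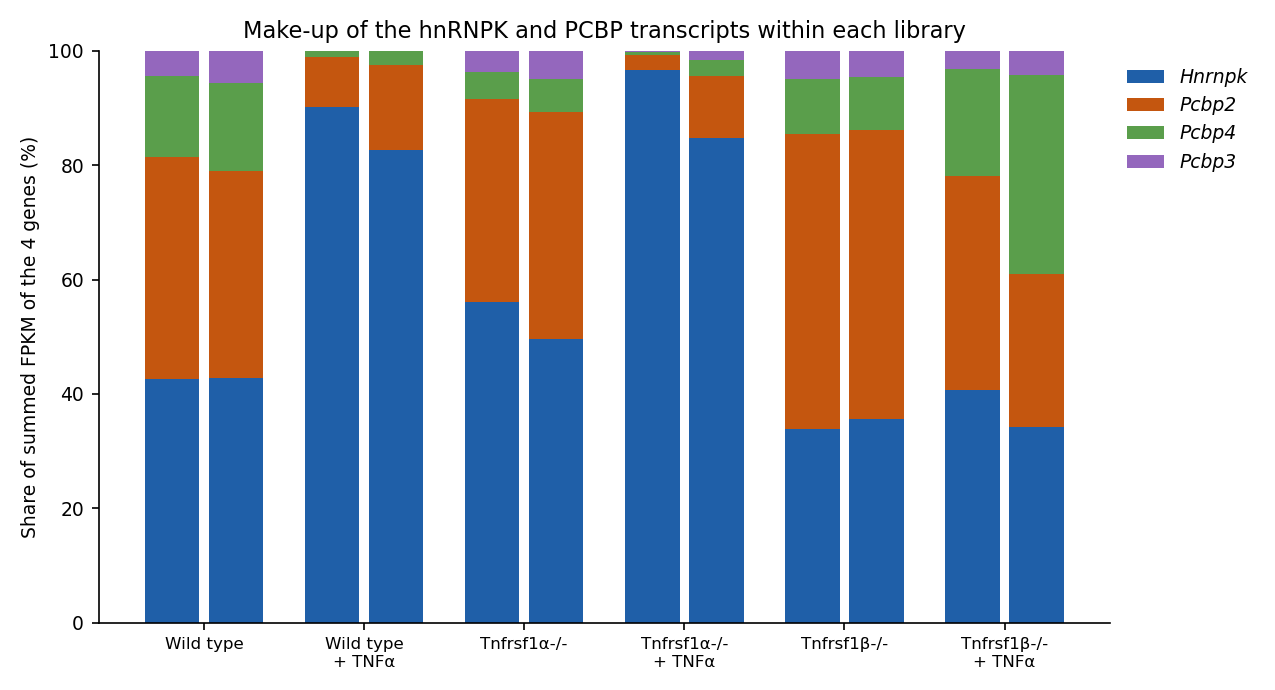
Share of the summed FPKM of Hnrnpk, Pcbp2, Pcbp4 and Pcbp3 held by each gene (vertical axis, percent) in the 12 libraries, 2 bars per group. Hnrnpk takes 82.6% to 96.6% in treated wild type and treated Tnfrsf1α-/- libraries and 33.9% to 56.0% in the others.

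As a share of all FPKM in a library, Hnrnpk took 0.139% and 0.0617% in treated wild type and 0.507% and 0.108% in treated Tnfrsf1α-/- libraries. Untreated Tnfrsf1α-/- libraries followed with 0.0557% and 0.0483%, then untreated Tnfrsf1β-/- with 0.0231% and 0.0242%, untreated wild type with 0.0140% and 0.00754%, and treated Tnfrsf1β-/- with 0.0103% and 0.00680%. On this scale the second treated wild type library lies close above untreated Tnfrsf1α-/-. By rank of FPKM among all lines, Hnrnpk was number 23 in the first treated Tnfrsf1α-/- library and number 1393 in the second treated Tnfrsf1β-/- library.

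Marker genes of liver cell types differed between the libraries where Hnrnpk was high and the others, but in different ways in the wild type and Tnfrsf1α-/- pairs. The summed FPKM of 16 hepatic progenitor and cholangiocyte markers was 26479 to 55963 in the 4 libraries of treated wild type and treated Tnfrsf1α-/- cells and 432 to 14715 in the other 8. Most of the sum in those 4 libraries came from Krt7, a bile duct keratin, so it does not show a rise of the whole list. Krt7 was at 14.63 to 15.67 in those 4 libraries. It was at 13.50 to 13.81 in untreated wild type and treated Tnfrsf1β-/- libraries and 7.64 to 7.99 in the untreated knockouts. Sox9, a biliary transcription factor gene, was at 9.15 to 9.67 in those 4 libraries and at most 6.30 in the other 8, and Cdh1, the gene of E-cadherin, at 5.57 to 10.71 against at most 3.92. Krt8, an epithelial keratin, was instead lowest in treated Tnfrsf1α-/- libraries, at 6.26 and 0.62. Epcam and Afp, defining progenitor markers, are listed at 0 in the 10 libraries outside treated wild type, where 3 to 5 of the 16 markers reached 1 FPKM, against 12 in treated wild type. The median level of the 16 markers was at most 0.27 in the 10 libraries outside treated wild type, treated Tnfrsf1α-/- included. Cd44 was at 4.88 to 7.96 in all 12 libraries.

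The sum of 17 hepatocyte markers was 5579 and 5750 FPKM in treated wild type, 1247 and 1231 in treated Tnfrsf1α-/- and 13.7 to 62.3 in the other 8 libraries. In treated wild type 15 of the 17 reached 1 FPKM. In treated Tnfrsf1α-/- libraries 3 and 2 did, nearly all of the sum came from Ambp, the gene of a secreted liver protein (levels 10.27 and 10.24), and Alb, Ahsg and Ttr were at 0.20 to 0.42. Vim, a mesenchymal filament gene, was at 1.22 and 1.34 in treated wild type libraries and at 8.93 to 10.92 in the other 10. The sum of the 12 matched mesenchymal markers was 2236 to 6763 FPKM in the 4 libraries and 2551 to 6338 in the other 8. Their median level was 0.20 and 0.49 in treated wild type and 4.57 to 7.21 in all other libraries. Sparc was at 0.28 and 0.85 in treated wild type and at least 9.68 elsewhere. Tagln and Dcn went the other way. Tagln made up most of the treated wild type sum, at 10.73 and 11.37 against at most 8.95 elsewhere, and Dcn was at 8.16 and 7.72 against at most 7.56. Of the leukocyte markers Ptprc was at 0 in 11 libraries and Cd14 was at 3.67 to 5.65 in all 12. The second treated Tnfrsf1α-/- library stood apart with Cd68, a macrophage gene, at 4.09 (at most 0.87 elsewhere), Spp1 at 6.12 (at most 0.07 elsewhere) and Pdgfra at 2.28 (at most 0.12 elsewhere). The part of these markers in the Hnrnpk, Pcbp2 and Pcbp3 results was not tested.

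The genes most like Hnrnpk over the 12 libraries, by Pearson's r of log2(FPKM + 1), were Klhdc1 (0.970), Col4a3 (0.968), Arhgap30 (0.964), Cd302 (0.964) and Akr1d1 (0.957). Because 4 libraries stand apart from 8, r mainly measures that split, and all points share the scaling of their libraries. Cd302, a C-type lectin gene, was at 6.56 and 6.27 in treated wild type libraries and 7.81 and 6.71 in treated Tnfrsf1α-/- libraries, and at most 0.46 in the other 8. Akr1d1, a steroid and bile acid reductase gene of hepatocytes, was at 2.07, 1.27, 3.48 and 2.19 in the same 4 libraries and is listed at 0 in the other 8. The most opposite genes were SNORD49 (-0.930), Tmprss4 (-0.911) and Igsf8 (-0.905).

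The other members followed different genes. Pcbp2 was most like both lines of Cttn, the gene of the actin-binding protein cortactin (0.992 and 0.990), and Nol11, a ribosome biogenesis gene (0.988). Pcbp4 was most like Il17rc, a subunit of the IL-17 receptor (0.975), Epn1, an endocytic adaptor gene (0.964), and Emd, which encodes the nuclear envelope protein emerin (0.956). Between members, r was 0.72 for Hnrnpk with Pcbp2 and -0.21 for Hnrnpk with Pcbp4 over the same 12 libraries.

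Yap1, the gene of YAP named in the series title, did not follow Hnrnpk closely (r = 0.25). Its level was 4.78 and 2.30 in untreated and 4.53 and 4.42 in treated wild type libraries (limma adjusted p = 0.268), and with TNFα in Tnfrsf1β-/- cells it fell by 2.03 on the log2 scale (limma adjusted p = 0.0253), a call lost after median-ratio scaling (-1.26, adjusted p = 0.0945) and without untreated Tnfrsf1β-/- replicate 1 or 2 or treated replicate 2. Wwtr1 is the gene of TAZ, a paralogue of YAP. In untreated Tnfrsf1α-/- and Tnfrsf1β-/- cells Yap1 was above wild type by 2.52 and 2.46 and Wwtr1 by 1.20 and 1.45 (limma adjusted p at most 0.0124). With TNFα in Tnfrsf1α-/- cells neither Yap1 (-0.36) nor Wwtr1 (-0.68) passed (limma adjusted p = 0.713 and 0.0739). The Wwtr1 response there differed from wild type by 0.09 (limma adjusted p = 0.844). Wwtr1 fell in wild type (-0.77) and in Tnfrsf1β-/- cells (-1.70) (limma adjusted p = 0.0242 and 0.000574). The wild type call was lost in the fit to only the groups compared (adjusted p = 0.0551) and without untreated wild type replicate 1 or treated replicate 1 or 2.

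Other KH-domain genes were read as the wider family. Of 31 listed, 29 matched and 26 were tested. With TNFα in wild type cells 7 were higher, 4 lower and 15 did not pass, with a median log2 difference of 0.21 against 0.32 for all tested lines, of which 31.9% were higher and 15.3% lower. The split was 5 higher and 6 lower under either median-ratio or quantile scaling, with medians of -0.25 and -0.29. In cells labelled Tnfrsf1α-/- 3 were higher and 3 lower (median -0.27 against -0.02), where 9.81% and 7.5% of all tested lines were. Those counts were 3 and 9 after quantile normalization, 3 and 0 in the fit to only the groups compared, and 5 and 12 without the first treated Tnfrsf1α-/- library. In Tnfrsf1β-/- cells 3 were higher and 14 lower (median -0.99 against -0.66), where 17.6% and 42.9% of all tested lines were, and the split was 6 and 9 after median-ratio scaling.

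Beside Pcbp3, the smallest p-values in wild type belonged to Bicc1, an RNA-binding regulator of bile duct and kidney tubule development (1.88), Tdrkh, a piRNA pathway gene (2.81), and Akap1, a mitochondrial anchor of kinases and mRNA (1.96), with limma adjusted p of 0.000633, 0.00109 and 0.00216. Bicc1 levels ran from 2.43 to 2.80 without TNFα in both knockouts and from 8.01 to 11.61 in the other 8 libraries. Igf2bp2, an mRNA-binding protein gene of fetal tissues, followed the same division, with levels of 1.67 to 2.23 against 6.50 to 10.17. Thus both were over 4 log2 units higher in treated than in untreated libraries of either knockout, a pattern unlike that of Hnrnpk. The differences were 7.74 and 5.69 for Bicc1 and 7.89 and 4.89 for Igf2bp2 (limma adjusted p at most 1.69e-06). The untreated knockout libraries also had the lowest FPKM totals, and a TNFα effect cannot be told apart from another difference of these libraries. In wild type Igf2bp2 rose by 0.77 (limma adjusted p = 0.00546), a call lost under the median-ratio (adjusted p = 0.172) and the quantile alternative (adjusted p = 0.751).

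**Figure D4:**
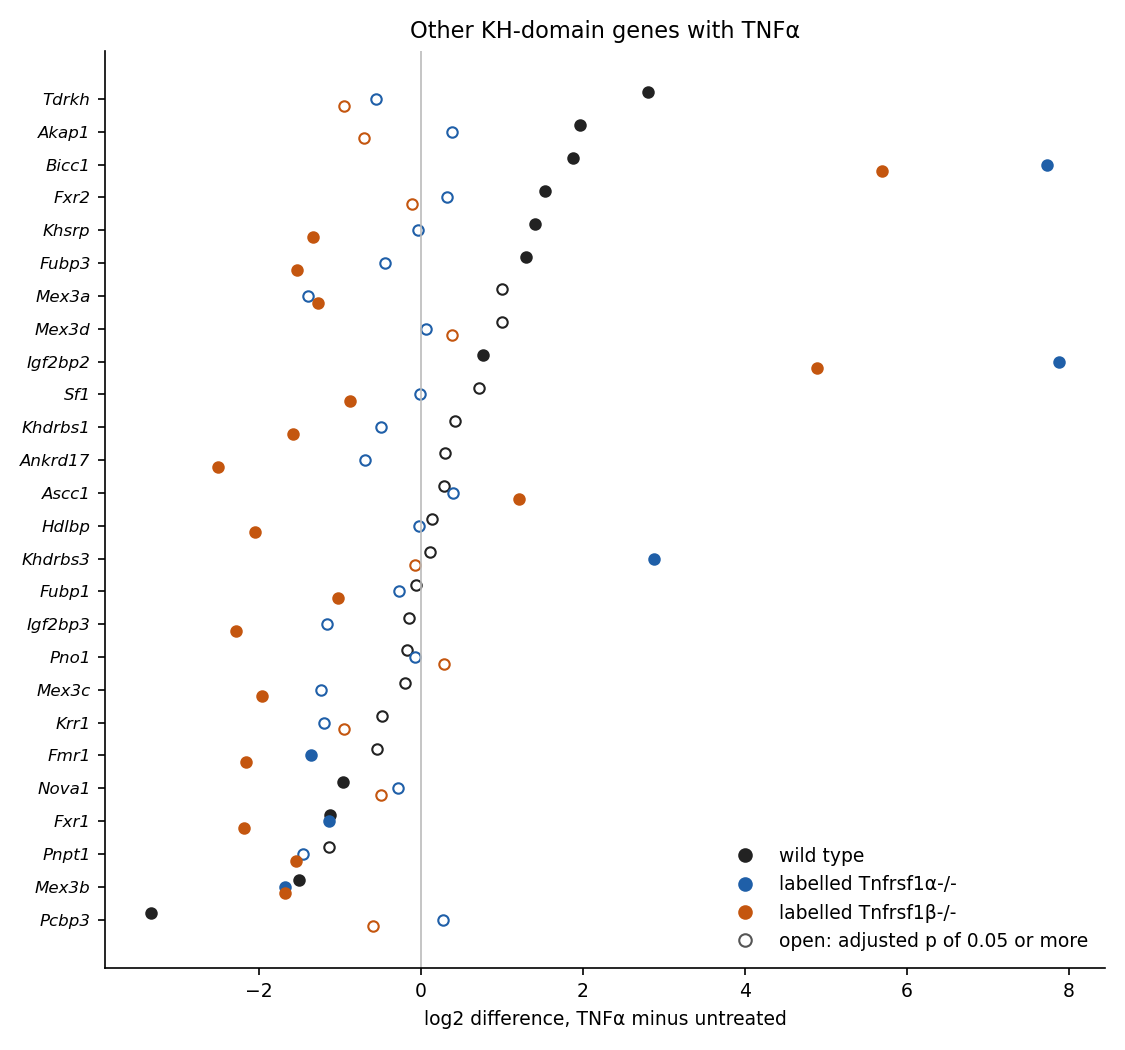
Log2 difference with TNFα (horizontal axis) of the 26 tested KH-domain genes outside the 3 members, in wild type, Tnfrsf1α-/- and Tnfrsf1β-/- labelled cells; filled points have a limma adjusted p under 0.05. Bicc1 and Igf2bp2 lie far to the right in both knockouts, and Pcbp3 is lowest in wild type at -3.34.

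Genes of proteins that modify or partner hnRNPK were a further list, 19 listed and all tested. With TNFα in wild type 7 were higher and 1 lower (median 0.44 against 0.32), where 31.9% and 15.3% of all tested lines were, or 5 and 2 with median-ratio and 5 and 3 with quantile scaling. Cdk2, a cell cycle kinase gene, was at 9.77 and 9.64 in treated wild type and 9.78 and 9.77 in treated Tnfrsf1α-/- libraries, and at 3.74 to 4.81 in the other 8, the same division of libraries as for Hnrnpk. Its log2 differences with TNFα were 5.49, 5.65 and -0.75 in wild type, Tnfrsf1α-/- and Tnfrsf1β-/- cells (limma adjusted p = 5.42e-07, 8.57e-07 and 0.0473), and the last call was lost after median-ratio scaling (0.018, adjusted p = 0.972), after quantile normalization, without the filter and in 8 of 12 fits with a library left out. Src (1.45), a tyrosine kinase gene, and Prkcd (2.84), the gene of protein kinase C delta, rose in wild type with limma adjusted p of 0.0033 and 0.00166. Lck, another tyrosine kinase gene, was at 3.24 and 3.49 in treated wild type and at most 1.02 elsewhere. Its mean reached the filter only through treated wild type, so its place among the 7 higher genes is not test support for a rise. In Tnfrsf1β-/- cells 2 of the 19 were higher and 10 lower (median -0.85 against -0.66), where 17.6% and 42.9% of all tested lines were, and after median-ratio scaling 4 were higher and 5 lower. Without untreated Tnfrsf1β-/- replicate 1 or 2 the number called there was 5, and without treated replicate 2 it was 6.

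Transcripts or genes known to be bound or controlled by hnRNPK or a PCBP formed a list of 18, with 12 tested. In wild type 4 were higher and 3 lower with TNFα (median -0.02 against 0.32), where 31.9% and 15.3% of all tested lines were, or 2 and 4 with median-ratio and 2 and 5 with quantile scaling. Agt, the angiotensinogen gene, was listed at 0 in both untreated wild type libraries and at 8.44 and 8.33 with TNFα, and at most 0.31 in the 8 knockout libraries, so it passed the filter only through treated wild type. Its place among the 4 higher genes is thus not test support for a rise. Ptgs2, the gene of cyclooxygenase 2, fell by 3.01 and Col3a1, a fibrillar collagen gene and also on the mesenchymal list, fell by 4.69 (limma adjusted p = 0.00029 and 0.00502). The part of the cell type markers in the changes of this list was not tested. Myc, whose promoter contains a CT element that hnRNPK binds, was named after its values were seen. It was at 4.33 and 3.81 untreated and 5.41 and 5.13 with TNFα in wild type (difference 1.2, limma adjusted p = 0.0688), and it fell by 1.38 in Tnfrsf1β-/- cells (limma adjusted p = 0.0340). The latter call was lost after median-ratio scaling (-0.64, adjusted p = 0.226), after quantile normalization, without the filter and in 7 of 12 fits with a library left out. In Tnfrsf1β-/- cells 0 of the 12 were higher and 5 lower (median -0.49 against -0.66), where 17.6% and 42.9% of all tested lines were. After median-ratio scaling 2 were higher and 4 lower (median -0.08), and in the fit to only the groups compared 8 were called.

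Iron handling genes were read because PCBPs deliver iron to ferritin. Of 22 listed 21 were tested, and with TNFα in wild type 10 were higher and 1 lower (median 1.01 against 0.32), where 31.9% and 15.3% of all tested lines were, or 7 and 3 with median-ratio and 6 and 3 with quantile scaling. Without either treated wild type library 7 were called in place of 11. Tf, the transferrin gene and also on the hepatocyte list, rose by 5.61, and Fth1, the ferritin heavy chain gene, by 2.22 (limma adjusted p = 1.62e-06 and 0.00138). Hif1an, an iron-dependent hydroxylase gene, rose by 2.25 (limma adjusted p = 0.000412). The tested line of Slc40a1, the gene of the iron exporter ferroportin, was at 2.83 and 2.41 in treated wild type and at most 1.74 elsewhere. Its mean reached the filter only through treated wild type, so its place among the 10 higher genes is not test support for a rise. A further line of Slc40a1 is listed at 0 in all 12 libraries. In Tnfrsf1β-/- cells 5 were higher and 6 lower (median -0.40 against -0.66), where 17.6% and 42.9% of all tested lines were. After median-ratio scaling 7 were higher and 5 lower (median 0.35), and without the first treated Tnfrsf1α-/- library 17 were called there.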

How the data were processed

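Total RNA of HPCs was extracted with Trizol and libraries were made from 1 ug with an Illumina TruSeq kit, per the labels' protocols. No source used here names the aligner, quantification tool, genome build or annotation. What the authors deposited is 1 table of 22730 lines and 12 columns, whose values are log2(FPKM + 1): of the values between 0 and 1, 80% turn into whole millionths with base 2, and 10% with base e or 10. Of its lines 346 without a symbol were left out, and 1835 that share a symbol were kept apart. Depth is unknown.

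Lines with a mean FPKM of at least 1 (11860) were tested on log2(FPKM + 1) with limma 3.58.1 in R 4.3.3. Means of 6 groups were fitted to 12 libraries, with trended empirical Bayes moderation and 9 contrasts. P-values are two-sided, Benjamini-Hochberg adjusted within a contrast over all tested lines, with a threshold of 0.05. A fold on this scale understates the change of low genes. The fit was tested on simulated data. The alternatives were median-ratio scaling, quantile normalization, a pseudocount of 0.1, no filter, only the groups compared, a replicate block and leaving out each library; for the gene lists they were added after seeing the data.

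The members and lists were chosen with earlier results of these data known. Named genes are the members, Pcbp3, the receptors, Yap1, Wwtr1, the genes of highest and lowest r to a member, and for every list up to 4 genes by p-value in wild type plus up to 2 from another comparison.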

Additional observations from a re-analysis of the deposited data

Results flagged for a closer look

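A test of the difference itself set the TNFα response of cells labelled Tnfrsf1β-/- apart from that of wild type cells for all 3 tested members. The log2 difference between responses was -4.15 for Hnrnpk, -2.20 for Pcbp2 and 1.33 for Pcbp4 (limma adjusted p = 0.00342, 0.00206 and 0.0434), and 64.5% of all tested lines were called in this comparison. After median-ratio scaling the differences were -2.88, -0.93 and 2.58, and the Pcbp4 call was lost in 8 of 12 fits with a library left out and without the filter on low values. No group was large enough to test a single library as far from the others.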

How the results depend on the processing

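With 27 differences (3 members, 9 comparisons), the pseudocount of 0.1 changed no direction or call; the removal of the filter ended 1 call, Pcbp4 in the Tnfrsf1β-/- minus wild type response (1.33). In the fit to only the groups compared Hnrnpk with TNFα in Tnfrsf1α-/- (3.72) lost its call, and untreated Tnfrsf1α-/- Hnrnpk (1.04) and treated Tnfrsf1β-/- Pcbp4 (0.83) gained one. The cause of these and the changes below was not tested. The Hnrnpk calls with TNFα in wild type, for the Tnfrsf1β-/- response and in treated Tnfrsf1β-/- cells held in every alternative run, as did the last 2 for Pcbp2.

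With quantile normalization Pcbp2 with TNFα was 0.56 in wild type and -1.21 in Tnfrsf1α-/-, Hnrnpk 1.77 in Tnfrsf1α-/-, and the Tnfrsf1α-/- minus wild type response of Pcbp2 -1.77. Untreated Tnfrsf1α-/- Hnrnpk was 2.28 and Pcbp2 1.77, untreated Tnfrsf1β-/- Hnrnpk 0.75 and Pcbp2 1.73, treated Tnfrsf1α-/- Pcbp2 0.0024 and treated Tnfrsf1β-/- Pcbp4 1.22, each against wild type. With median-ratio scaling Hnrnpk with TNFα in Tnfrsf1β-/- was 0.62 and Pcbp2 -0.16, the Tnfrsf1α-/- minus wild type response of Hnrnpk 0.27, untreated Tnfrsf1α-/- Pcbp4 -1.31, treated Tnfrsf1α-/- Pcbp4 -0.0030 and treated Tnfrsf1β-/- Pcbp4 1.53.

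Mean levels moved by over 1 SD in some groups. With quantile normalization Hnrnpk was 9.79 in treated wild type, 9.10 in untreated Tnfrsf1α-/- and 7.57 in untreated Tnfrsf1β-/-. Pcbp2 was then 7.22 in treated wild type, 8.44 and 7.23 in untreated and treated Tnfrsf1α-/- and 8.40 in untreated Tnfrsf1β-/-, and Pcbp4 4.84 in treated wild type and 4.99 in untreated Tnfrsf1β-/-. With median-ratio scaling Hnrnpk was 7.66 in untreated Tnfrsf1α-/- and 6.49 and 7.11 in untreated and treated Tnfrsf1β-/-. Pcbp2 was 7.78 in treated wild type, 7.18 and 7.37 in untreated and treated Tnfrsf1α-/-, and 7.04 and 6.87 in untreated and treated Tnfrsf1β-/-, and Pcbp4 5.04, 4.38, 4.64 and 6.57 in treated wild type, untreated Tnfrsf1α-/- and untreated and treated Tnfrsf1β-/-.

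When each library was left out in turn, Pcbp2 with TNFα in wild type ran from 0.85 to 1.64 and Pcbp4 from -0.47 to 0.098. Pcbp4 in Tnfrsf1α-/- ran from 0.14 to 1.08. In Tnfrsf1β-/- Hnrnpk ran from -0.41 to 0.056, Pcbp2 from -1.31 to -0.61 and Pcbp4 from 0.81 to 1.47. For the Tnfrsf1α-/- minus wild type response Hnrnpk ran from -1.29 to 0.79, Pcbp2 from -1.49 to -0.70 and Pcbp4 from 0.33 to 1.27, and for Tnfrsf1β-/- Pcbp4 from 1.00 to 1.66. Untreated Tnfrsf1α-/- against wild type gave Hnrnpk 0.70 to 1.38, Pcbp2 0.34 to 1.13 and Pcbp4 -1.03 to -0.46, and untreated Tnfrsf1β-/- Hnrnpk -0.50 to 0.19 and Pcbp2 0.18 to 0.98. Treated Tnfrsf1α-/- gave Hnrnpk -0.25 to 1.83 and Pcbp4 -0.42 to 0.52, and treated Tnfrsf1β-/- Pcbp4 0.50 to 1.16. A group left with 1 library is assumed to vary like the others.

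Deviations of same-numbered libraries correlated at -0.17 to 0.24 over 15 pairs of groups, above 0.1 in 9 and not in 6, and the labels tie the numbers to no shared culture or batch, so the numbers were not taken to pair libraries. With a replicate block none of the 27 member differences changed direction or call, and Hnrnpk with TNFα in wild type was at 3.97. Calls over all lines with TNFα in Tnfrsf1α-/- went from 2052 to 2675. Those 2052 were 3750 with quantile normalization and 570 in the fit to only the groups compared, where treated and response differences of Tnfrsf1α-/- from wild type went from 5356 to 2111 and from 4127 to 2751. Without either untreated Tnfrsf1α-/- library they were 750 and 851, without either untreated Tnfrsf1β-/- library 1310, and without treated Tnfrsf1α-/- replicate 1 7001. With TNFα in wild type 5601 calls became 3520 and 3618 without either treated wild type library. Such removals also moved the Tnfrsf1α-/- minus wild type response to 2392 to 7125 calls, treated Tnfrsf1α-/- to 3081 and 3504, treated Tnfrsf1β-/- to 3937 (from 6046), untreated Tnfrsf1α-/- to 4179 (from 6370) and untreated Tnfrsf1β-/- to 4198 and 4292 (from 6456). Scaling moved the median of all lines from 0.32 to -0.04 (median-ratio) or -0.12 (quantile) with TNFα in wild type, and the share of calls that were higher from 67.6% to 49.3% or 43.2%. With median-ratio scaling that share went from 29.1% to 50.9% with TNFα in Tnfrsf1β-/-, from 36.9% to 52.5% and 26.8% to 50.2% for the responses of Tnfrsf1α-/- and Tnfrsf1β-/- against wild type, from 68.3% to 51.0% and 67.8% to 51.4% for the same knockouts untreated, and from 28.8% to 54.6% for treated Tnfrsf1β-/-. With quantile normalization it went from 56.7% to 34.3% with TNFα in Tnfrsf1α-/-.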
